A study of Homo sapiens with 66 samples.

Results

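The genes described here encode 9 proteins by which monocytes and macrophages are recognised or through which they sense their surroundings. They were chosen by symbol as CD14, CD163, CD68, CD33, CD86, FCGR1A, FCGR2A, FCER1G and TYROBP, and each symbol matched 1 of the 57992 gene identifiers analysed. RNA was sequenced from 11 AML cell lines, established lines grown from acute myeloid leukemias, in 66 libraries. Each line had 3 libraries of cells given media for 24 hours (untreated) and 3 of cells given etoposide for 24 hours at that line's own IC50 (the concentration that lowers viability to the midpoint), so the dose differed between lines. Etoposide traps topoisomerase II on cut DNA and thereby breaks DNA. Each RNA came from wells pooled before extraction, each line is a single line in culture, and F-36P was grown with GM-CSF, a cytokine that drives myeloid growth. The lines are spelled here as the study's text spells them (the labels write F36P, HL60, KASUMI1, MOLM13, MONOMAC6, MV411, NB4, NOMO1, OCIAML2, OCIAML3 and THP1). The study's overview of the lines lists 5 as AML M5, the monocytic class (THP-1, NOMO-1, MV-4-11, MONO-MAC-6 and MOLM-13), OCI-AML2 and OCI-AML3 as M4, the myelomonocytic class, HL-60 and NB-4 as M3, KASUMI-1 as M2 and F-36P as M6. That class is not among the sample labels.

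CD14 binds bacterial lipopolysaccharide and hands it to the TLR4 complex. CD163 takes up complexes of haemoglobin and haptoglobin and marks macrophages. CD68 is a lysosomal protein of macrophages related to the LAMP proteins. CD33 is a Siglec, a receptor for sialic acid with inhibitory motifs in its tail, found on most myeloid cells and a target of antibody therapy in AML. CD86 is the ligand by which antigen-presenting cells give T cells the second signal through CD28. FCGR1A is the high-affinity receptor for IgG, and FCGR2A is a low-affinity one that carries its own activating motif (ITAM). FCER1G and TYROBP are short adapters that carry an ITAM. FCER1G serves FCGR1A and other Fc receptors, and TYROBP serves TREM and Siglec receptors without signalling tails of their own. On GRCh38 (gencode 44) the genes lie, as whole genes, with CD14 at chr5:140631728-140633700 (- strand), CD33 at chr19:51225064-51243860 (+ strand), CD68 at chr17:7579491-7582111 (+ strand), CD163 at chr12:7470811-7503893 (- strand), CD86 at chr3:122055362-122121139 (+ strand), FCGR1A at chr1:149782671-149791675 (+ strand), FCGR2A at chr1:161505430-161524013 (+ strand), FCER1G at chr1:161215234-161220699 (+ strand) and TYROBP at chr19:35904401-35908295 (- strand).

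Reads on genes numbered 17997404 to 24101670 per library, and no pair of libraries of a group agreed within sampling noise. The etoposide libraries of OCI-AML2 failed the study's quality control and are given apart. In those libraries 0 of 13604 genes passed the call rule used below, and CDKN1A, the p53 target that halts the cell cycle, was higher by 0.73 on the log2 scale, against 1.86 to 5.46 in the other 10 lines. MDM2, a further p53 target, was called higher in MOLM-13, MV-4-11 and OCI-AML3.

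Promoter sequences are shown first for CD86, TYROBP and FCER1G, the members that rose after etoposide in the most lines, and for CD33, which was not called in any line. Each run is the 300 bases around the RefSeq start (mostly before it) on GRCh38.p14, 5′ to 3′ on the strand of the gene, and capitals mark GAGGAA or its complement TTCCTC, the core that the myeloid factor PU.1 binds. CD86 (chr3:122055112-122055411, + strand) has a second RefSeq start further along the gene, whose window holds none of the motifs searched. TYROBP is at chr19:35908246-35908545 (- strand), FCER1G at chr1:161215045-161215344 (+ strand) and CD33 at chr19:51224830-51225129 (+ strand).
CD86: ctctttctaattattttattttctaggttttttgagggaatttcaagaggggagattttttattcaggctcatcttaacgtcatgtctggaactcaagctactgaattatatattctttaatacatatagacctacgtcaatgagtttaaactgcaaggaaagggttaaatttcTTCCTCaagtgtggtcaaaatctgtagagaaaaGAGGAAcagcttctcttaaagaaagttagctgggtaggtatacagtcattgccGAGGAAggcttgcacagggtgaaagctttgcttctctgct
TYROBP: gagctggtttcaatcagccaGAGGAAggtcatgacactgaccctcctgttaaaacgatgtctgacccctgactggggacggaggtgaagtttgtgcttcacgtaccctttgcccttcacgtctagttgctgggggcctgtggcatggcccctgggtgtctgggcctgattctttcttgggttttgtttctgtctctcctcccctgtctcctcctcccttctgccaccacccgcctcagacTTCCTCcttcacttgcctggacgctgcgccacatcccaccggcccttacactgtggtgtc
FCER1G: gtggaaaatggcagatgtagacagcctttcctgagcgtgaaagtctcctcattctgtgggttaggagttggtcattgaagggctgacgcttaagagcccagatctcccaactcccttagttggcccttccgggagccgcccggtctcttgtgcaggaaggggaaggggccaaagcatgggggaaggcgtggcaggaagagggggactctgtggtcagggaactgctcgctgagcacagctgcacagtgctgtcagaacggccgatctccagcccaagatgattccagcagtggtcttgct
CD33: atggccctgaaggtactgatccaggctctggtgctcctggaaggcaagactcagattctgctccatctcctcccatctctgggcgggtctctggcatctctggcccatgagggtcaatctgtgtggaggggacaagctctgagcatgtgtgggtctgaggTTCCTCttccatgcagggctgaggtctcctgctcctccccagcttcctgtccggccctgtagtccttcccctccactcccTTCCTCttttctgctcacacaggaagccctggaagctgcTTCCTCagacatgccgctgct

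The CD86 window held 3 matches to the PU.1 core, TYROBP 2, CD33 3 and FCER1G 0. Over the 10 windows of the 9 genes, 8 held at least 1 match, against 27.9% of all 35116 RefSeq promoter windows of the same length. In FCGR1A and FCGR2A, whose levels after etoposide are compared below, a TTCCTC began at positions -46 and -45 before the start. The AP-1 motif TGANTCA was found in 2 of the 10 windows, those of CD14 and CD68, and in 7.71% of all windows. The C/EBP motif TTGCNNAA was found in those of CD68 and CD163 and in 3673 of the 35116. Both strands were searched. A match is a run of letters, and none was tested for binding.

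Counts of CD68 could not be read as its expression. Of the 2163 exon bases of CD68 (chromosome 17, + strand), 81.6% also lie in exons of a long non-coding RNA on the same strand in the annotation used here. Reads that overlap more than 1 gene are not counted for either. CD68 had 437 reads in all 66 libraries, against 143390 for CD33, and a second long non-coding RNA on the opposite strand overlaps 6.8% of its exon bases. Its untreated level was at most 0.844 CPM (read counts scaled to library size), in NOMO-1. No statement on CD68 beyond its values is made below. FCGR1A and FCGR2A have near-identical copies that can share or lose reads. FCGR1BP and FCGR1CP held 7099 and 2117 reads beside 21240 for FCGR1A, and FCGR2B and FCGR2C held 14403 and 9126 beside 59856 for FCGR2A, so the levels of both receptors are uncertain. FCGR1A also shares 8.2% of its exon bases with H2BC18 on the opposite strand. FCGR2A shares 3.7% with a long non-coding RNA on its own strand and CD163 shares 0.7% with CD163L1, and the other 5 members share none.

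The first question was how much of each gene the untreated lines held. Levels are TMM-normalized CPM over the 33 untreated libraries, as mean ± SD of 3 libraries. CD33 was expressed in all 11 lines within a narrow range, whereas CD14 and CD163 were near 0 in most lines and CD86, FCGR1A, FCER1G and TYROBP spanned several powers of 2 between lines. Over neighbours in the order of the lines, 40 of 90 pairs of line and member differed (edgeR quasi-likelihood test, adjusted p below 0.05). Over the same 90 pairs 66.6% of all genes did (55.8% to 76.6% for a pair of lines). The pairs were neighbours in each member's own order, which keeps that member's gaps small, and other genes were not so chosen. The count for the members therefore cannot be set against the share of all genes.

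CD14 was highest in MONO-MAC-6, at 19.9, 25.1 and 25.2 CPM in the 3 libraries (23.4 ± 3.00). THP-1 followed at 7.24 ± 1.02, OCI-AML3 at 5.19 ± 1.61 and OCI-AML2 at 3.04, 2.95 and 3.15 in its libraries, and each of these differed from the next. The other 7 lines lay at or below 0.503, with 2 to 28 reads over 3 libraries, and did not differ from their neighbours in the order. CD14 was thus high in 2 of 5 M5 lines and in both M4 lines. MOLM-13, MV-4-11 and NOMO-1, also listed as M5, had 14, 16 and 17 reads.

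CD163 was above 1 CPM in 3 of those 4 lines. OCI-AML3 held the most, at 5.46, 5.81 and 12.4 CPM, with the third library apart from the other two. THP-1 had 3.22 ± 0.239 and MONO-MAC-6 3.19 ± 0.351, which did not differ (log2 difference 0.01, adjusted p = 0.99 by edgeR). OCI-AML2 had 5 reads, MOLM-13 had 2 and NOMO-1 had 1. F-36P, HL-60, KASUMI-1, MV-4-11 and NB-4 had 0 reads over 3 libraries, which allows up to 0.0498 to 0.0535 CPM by line (counting error only).

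CD33 ranged from 66.5 ± 3.91 CPM in NB-4 to 147 ± 2.60 in MOLM-13. MOLM-13 and F-36P (141 ± 7.85) did not differ from each other. Of the 10 neighbouring pairs in its order, 8 did not differ, the most of any member with reads in every line. FCGR2A, described below, ran from 5.37 ± 0.985 in HL-60 to 76.5 ± 5.75 in F-36P.

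CD86 was highest in 3 M5 lines. NOMO-1 held 32.5, 26.8 and 30.5 CPM (29.9 ± 2.89), MOLM-13 held 16.8 ± 2.40 and MONO-MAC-6 14.1 ± 0.983, and the last 2 did not differ. The other M5 lines were low, at 1.62 ± 0.484 in MV-4-11 and 0.824 ± 0.330 in THP-1. OCI-AML2 (4.62 ± 0.135), OCI-AML3 (2.78 ± 1.21) and HL-60 (2.57 ± 0.369) lay between, and KASUMI-1, F-36P and NB-4 had 26, 7 and 4 reads.

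Of the Fc receptors, FCGR1A was highest in OCI-AML2 (43.4 ± 0.623 CPM), THP-1 (37.6 ± 2.79) and MV-4-11 (25.5 ± 0.840), each different from the next. It had 1 read in F-36P and 1.38 ± 0.165 in HL-60, and the other 6 lines lay between 6.54 and 14.8. FCGR2A took another order. F-36P, which had almost no FCGR1A, had the most FCGR2A, and OCI-AML3 (63.7 ± 2.27) and THP-1 (56.6 ± 0.454) followed without a difference between them. HL-60 and KASUMI-1 (7.22 ± 0.381) were lowest.

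The adapters also differed in order. FCER1G was highest in THP-1 (121 ± 12.6 CPM), then OCI-AML3 (85.1 ± 8.50) and MONO-MAC-6 (80.4 ± 1.64), which did not differ, and lowest in KASUMI-1 (1.90 ± 0.124). TYROBP was highest in OCI-AML2 (107 ± 0.945), then MOLM-13 (87.8 ± 4.37) and THP-1 (79.5 ± 8.21), which did not differ, and lowest in KASUMI-1, at 0.456, 0.419 and 0.554. MOLM-13 thus held the second most TYROBP and the second least FCER1G (3.10 ± 0.628). OCI-AML3 held the second most FCER1G and 9.95 ± 0.678 of TYROBP.

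**Figure D1:**
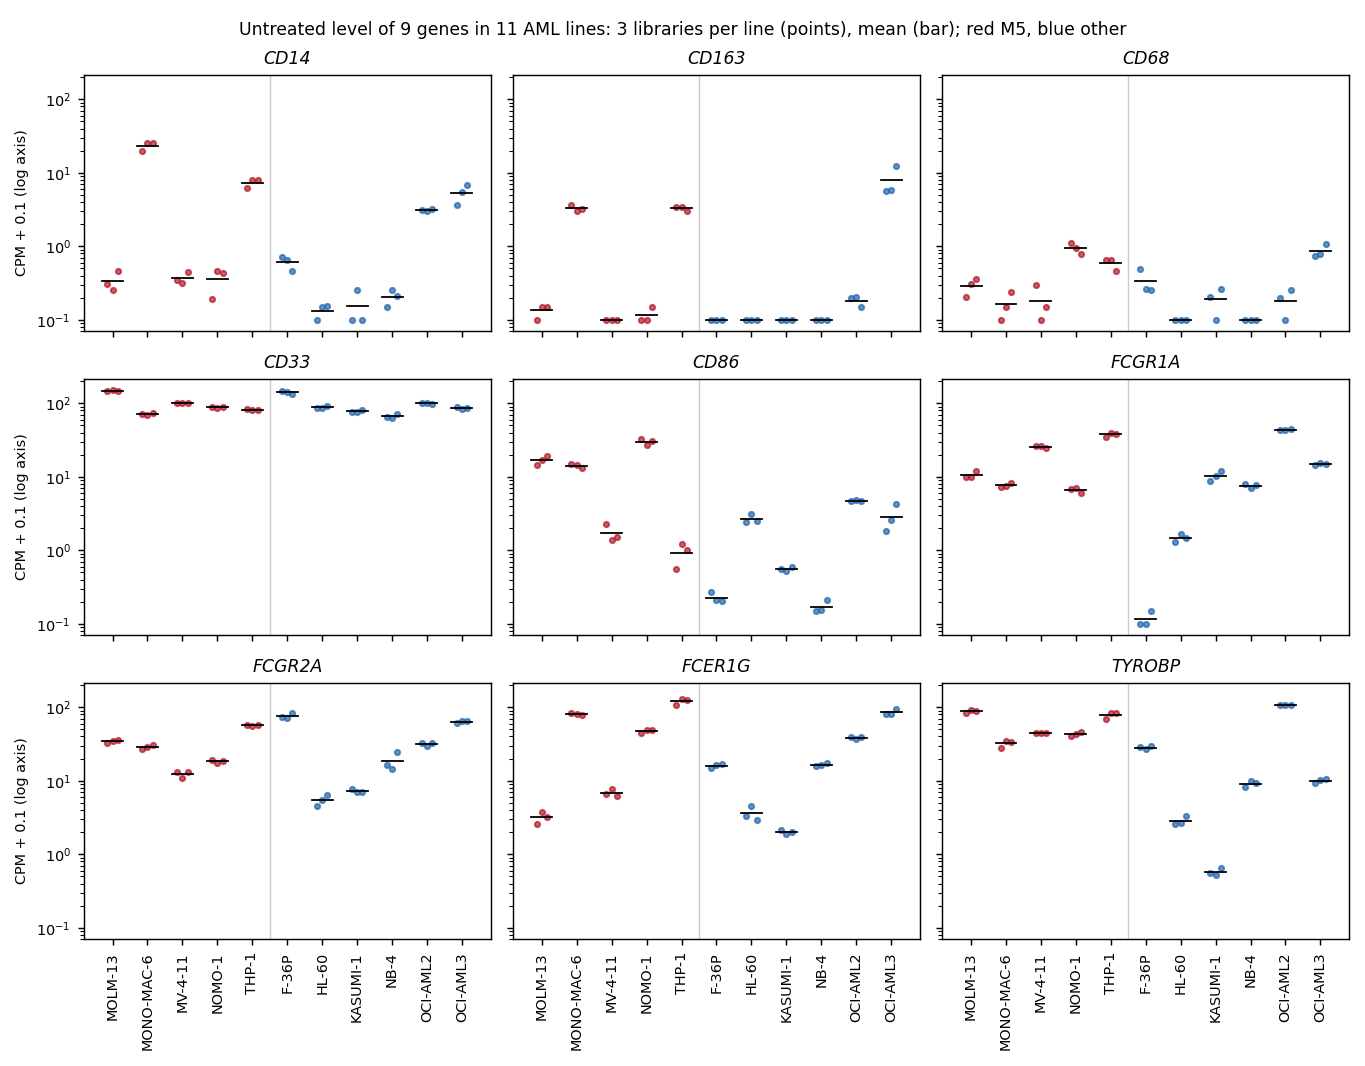
Untreated level of each gene in each line, as CPM with 0.1 added on a log axis, with 1 point per library and a bar at the mean of 3. CD33 is level across the 11 lines, CD14 and CD163 rise above 1 CPM in 4 and 3 lines, and KASUMI-1 is lowest for both adapters.

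Within a line, levels were also taken per kilobase of exon, counting every base annotated as exon of the gene. The adapters stood first in THP-1, with 125 CPM per kb for FCER1G and 87.6 for TYROBP. FCGR1A (17.5), CD33 (13.5) and FCGR2A (10.4) followed, then CD14 at 4.40, CD163 at 0.553 and CD86 at 0.240. In KASUMI-1 the order was different, with CD33 first at 13.0 and TYROBP at 0.525. The annotated exon bases numbered 5975 for CD33 and 5422 for FCGR2A, against 964 for FCER1G and 907 for TYROBP. The RNA made may be shorter than that, so the order of genes depends on the annotation.

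Across the 11 untreated lines, the levels of the members were only loosely alike. Over the 36 pairs of members the median Pearson r of log2(CPM + 1) was 0.32, with the highest for CD14 and CD163 (0.83) and the lowest for CD33 and CD163 (-0.34). The same 33 libraries enter every pair, and these values are a description with no test. Among 13669 genes of at least 1 CPM on average, those most like CD14 were KCNJ2 (r = 0.94), ITGB2, the beta chain of leukocyte integrins (0.93), and VCAN, a proteoglycan made by monocytes (0.92). VCAN was also nearest to CD163 (0.96), ahead of NT5E and ECHDC3 (both 0.96). CD86 was most like P2RX7, an ATP-gated channel (0.95), HLA-C (0.91) and HOXA6 (0.91). FCGR1A was most like CCDC96 (0.93), CSF1R, the receptor for the growth factor of macrophages (0.93), and SLIT1 (0.92). For CD33 the nearest were HSPBP1 (0.93), UQCRFS1 (0.91) and TNFRSF8 (0.90), and for FCGR2A they were PRKAR2B (0.95), UNKL (0.94) and SHC1 (0.89). FCER1G was nearest to ZNF525, RECK and ZNF239 (0.90, 0.90 and 0.89), and TYROBP to the pseudogene PDCD6IPP2, C11orf58 and POLR3K (0.93, 0.92 and 0.91). For CD68, with its few reads, SDC3, RADX and TEAD1 came first (each 0.95).

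The second question was whether these levels differed between the M5 lines and the rest. With 1 value per line, 5 against 6, no gene passed an adjusted p of 0.05 by limma (0 of 18130, 0%), and 1243 had an unadjusted p below 0.05. The 9 members all lay higher on average in the M5 lines, with a median difference of 0.95 on the log2 CPM scale, against 0.04 over all genes tested, of which 9664 of 18130 lay higher. The differences for CD33 and FCGR2A (0.06 ± 0.23 and 0.27 ± 0.72, estimate ± SE) changed sign when a line was left out. None of the 9 passed the test.

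The largest differences among the members were those of CD86 and TYROBP. CD86 was higher in M5 lines by 2.75 ± 1.18 on the log2 scale (limma p = 0.0389, adjusted p = 0.71, exact permutation p = 0.0714 over 462 splits of the lines, 2-sided, the smallest possible being 0.00216). TYROBP was higher by 2.61 ± 1.08 (limma adjusted p = 0.70, exact permutation p = 0.0563). TYROBP lay above the median of the other lines in 5 of 5 M5 lines, and its spread among M5 lines was narrow (SD 0.62 on the log2 scale) beside that of the others (2.61). CD14, the textbook monocyte marker, differed by 1.37 ± 1.44 (exact permutation p = 0.41). In 3 M5 lines it was at or below 0.267 CPM, and both M4 lines had more than that. FCGR1A differed by 1.62 ± 1.29, CD163 by 0.95 ± 1.41, FCER1G by 0.89 ± 1.17 and CD68 by 0.66 ± 0.69.

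Moving the M4 lines to the M5 side, 7 lines against 4, gave 232 of 18130 genes at an adjusted p below 0.05 (1.28%), with 0 of the 9 members among them, and 2730 genes with an unadjusted p below 0.05. In that grouping TYROBP differed by 3.36 ± 0.94 (limma adjusted p = 0.12, exact permutation p = 0.00606 over 330 splits) and CD86 by 3.48 ± 1.07 (adjusted p = 0.15, exact permutation p = 0.0242). FCGR1A differed by 3.12 ± 1.09 (limma adjusted p = 0.20, exact permutation p = 0.0182) and CD14 by 3.19 ± 1.22 (limma adjusted p = 0.25, exact permutation p = 0.0485). The permutation p-values are for single genes and are not adjusted for the 9 compared.

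**Figure D2:**
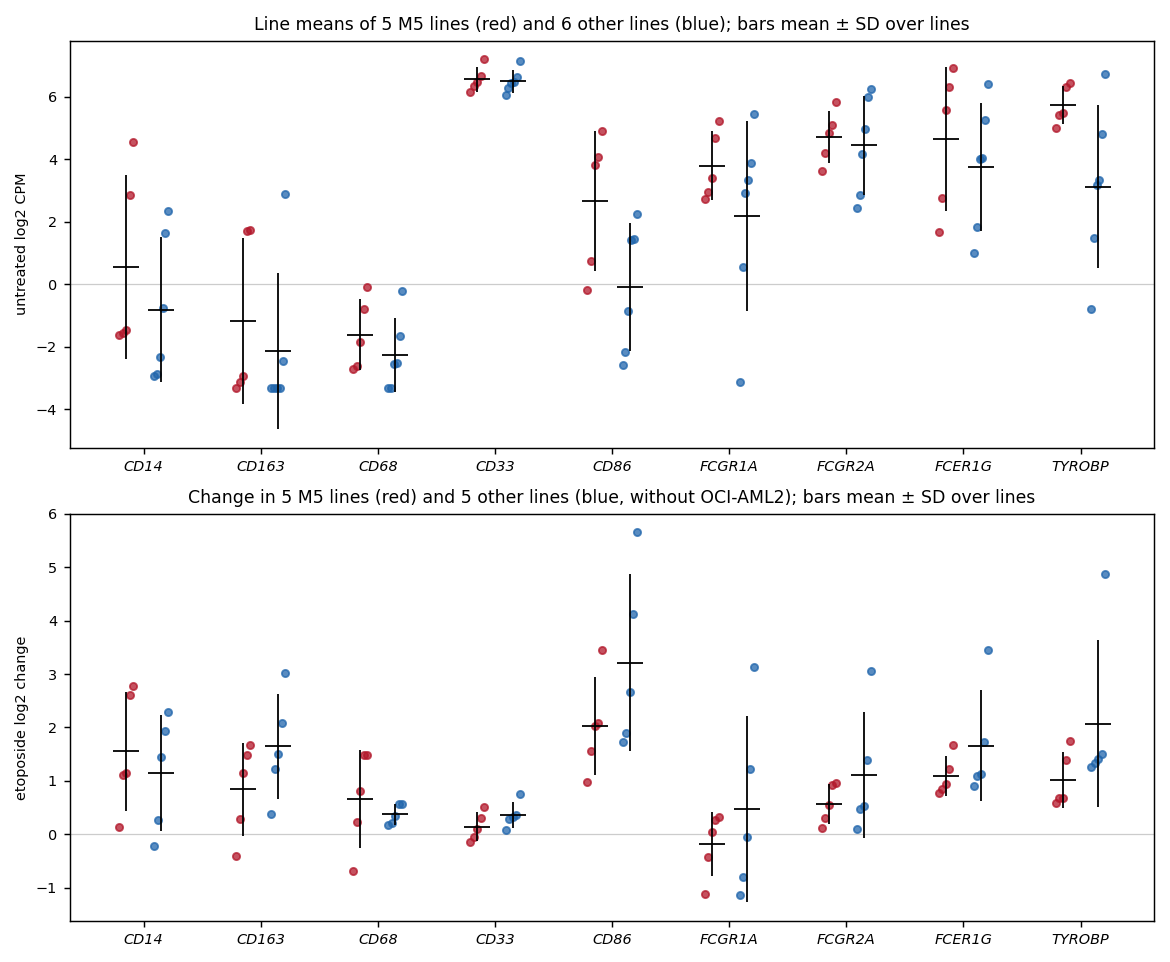
Members in 5 M5 lines (red) and the other lines (blue), 1 point per line with mean ± SD over lines, as untreated log2 CPM (upper panel) and as the log2 change after etoposide (lower panel, without OCI-AML2). The groups overlap for every member in both panels, and the 5 M5 lines lie close together for TYROBP at the untreated level.

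The third question was how etoposide changed the members. In each line the 3 etoposide and 3 untreated libraries were compared by edgeR's quasi-likelihood test, and a gene was called at an adjusted p below 0.05 and a fold change above 2. The ± after a log2 change within a line is an SE taken back from that test, as the change over the root of its F value. It is not a measure of counting error, and where a group held few reads it can make the change look too precise. In bulk RNA a change in RNA per cell cannot be told apart from a change in which cells were left alive. CD86 was called higher in 10 of 10 lines, TYROBP in 7, FCER1G in 6, CD14 and CD163 in 4 lines each, and FCGR2A in 2. FCGR1A was higher in 2 lines and lower in 2, and CD33 was called in none. Some of these calls were on genes that passed the filter on low counts only with the etoposide libraries, which have nearly to differ. They were CD86 in F-36P, KASUMI-1, NB-4 and THP-1, TYROBP in KASUMI-1, CD163 and FCGR1A in F-36P and CD14 in NOMO-1. Without such pairs CD86 was called higher in 6 of 6 lines, TYROBP in 6 of 9, FCER1G in 6 of 10, CD14 and CD163 in 3 of 3 each and FCGR2A in 2 of 10, and FCGR1A was higher in 1 and lower in 2 of 9.

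Of the 90 pairs of member and line, 72 passed the filter on low counts, 35 were called higher and 2 lower. Over all genes tested in the 10 lines, 11.1% of 143149 pairs of gene and line were called higher and 3.96% lower. Leaving out the pairs that passed the filter only with the etoposide libraries, 27 of 62 remained called higher (43.5%), against 6.66% over all genes treated alike, where 4.33% were called lower. By line the members called higher were 6 of 8 tested in F-36P, where 24.3% of all genes were, 5 of 6 in KASUMI-1 (14.6%), 5 of 9 in OCI-AML3 (7.18%) and 3 of 6 in MOLM-13 (8.59%), MV-4-11 (12.5%) and NB-4 (13.2%). They were 3 of 8 in MONO-MAC-6 (8.53%), 3 of 9 in THP-1 (6.38%), 2 of 6 in HL-60 (5.34%) and 2 of 8 in NOMO-1 (8.34%). Without the pairs that passed only with etoposide, they were 3 of 4 in F-36P and in KASUMI-1, 2 of 5 in NB-4, 2 of 7 in THP-1 and 1 of 7 in NOMO-1, and the other 5 lines had no such pair. The shares of all genes called lower were 6.67% in F-36P, 1.24% in HL-60, 6.52% in KASUMI-1, 3.37% in MOLM-13, 4.47% in MONO-MAC-6, 2.63% in MV-4-11, 4.82% in NB-4, 4.43% in NOMO-1, 1.36% in OCI-AML3 and 3.46% in THP-1, and the 2 members called lower were FCGR1A in MONO-MAC-6 and in OCI-AML3. In OCI-AML2, 0 of 7 members tested were called, by log2 changes from -0.10 to 0.18, with the same 0 of 7 at an adjusted p alone.

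**Figure D3:**
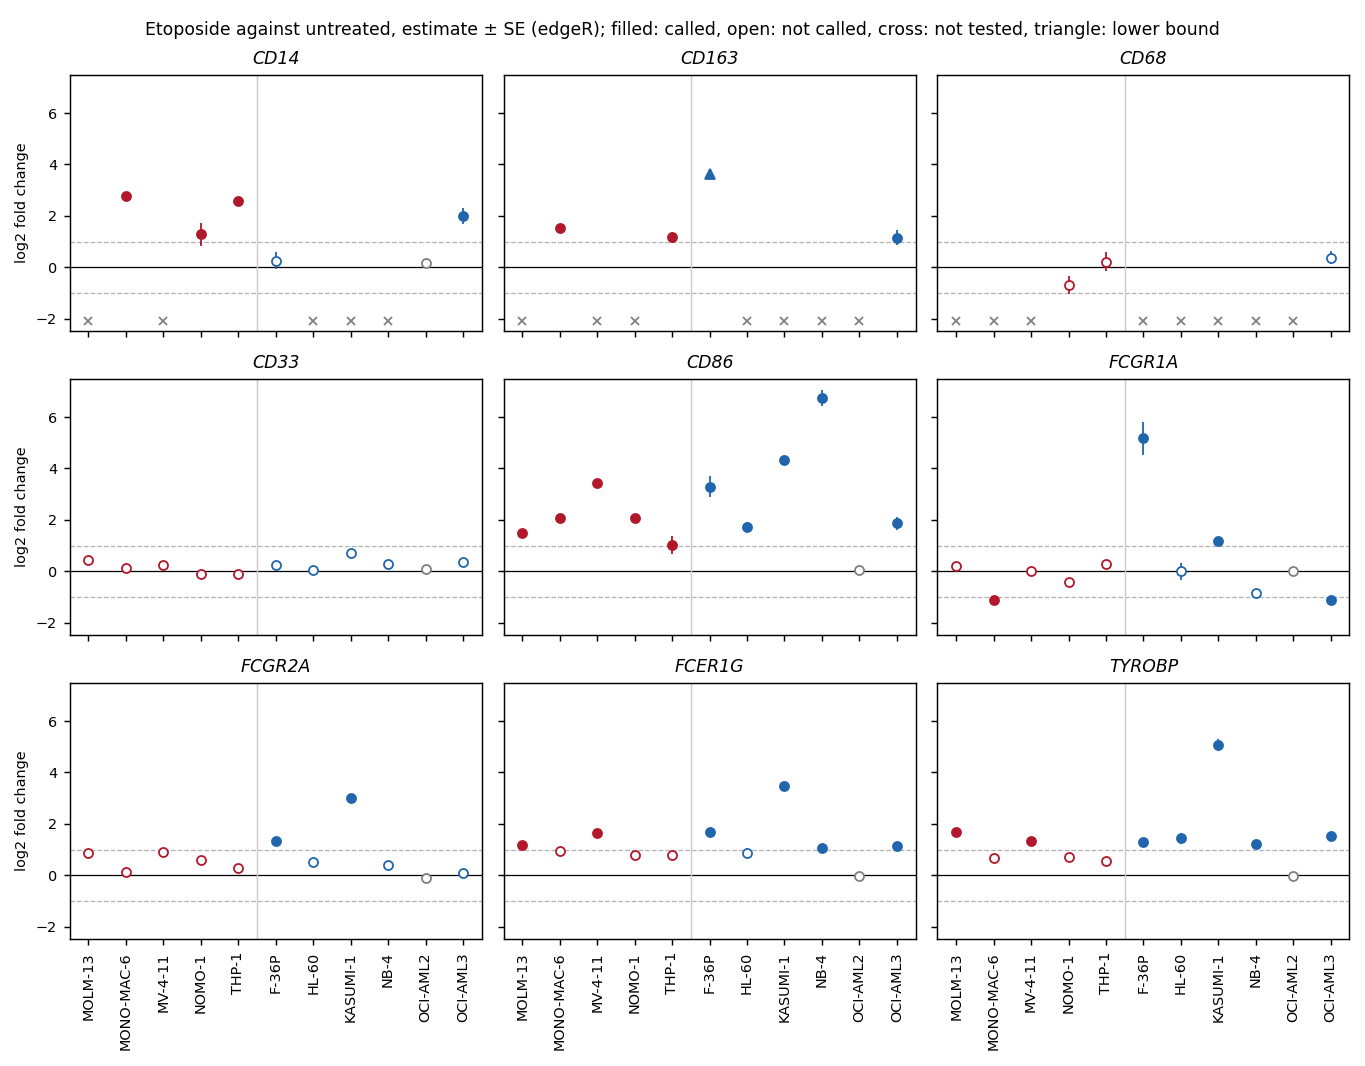
Log2 change after etoposide in each line, for M5 lines (red), other lines (blue) and OCI-AML2 (grey). Points are edgeR estimates, and bars are ± SE taken back from its test, which can be too short where a group held few reads. Filled points were called, open points were not, crosses mark pairs that were not tested and the triangle is the lower bound for a line with 0 untreated reads. CD86 is filled in 10 of 10 lines and CD33 in none.

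CD86, the T cell costimulatory ligand, rose most in NB-4, the line with the lowest untreated level. It went there from 1, 1 and 2 reads to 209, 183 and 160, a fitted log2 change of 6.73. In KASUMI-1 it went from 0.457 ± 0.0364 to 9.23 ± 0.481 CPM, by 4.32. In both lines CD86 passed the filter on low counts only with the etoposide libraries, so the test had nearly to call it. NOMO-1, with the highest level, still rose from 36.3, 29.8 and 34.2 to 135, 152 and 133 CPM, by 2.06 ± 0.10. The groups of libraries did not overlap in any of the 10 lines.

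CD86 rose by 3.45 ± 0.16 in MV-4-11, 2.09 ± 0.07 in MONO-MAC-6 and 1.86 ± 0.26 in OCI-AML3. It rose by 1.73 ± 0.18 in HL-60 and 1.49 ± 0.11 in MOLM-13. In F-36P, where it rose by 3.29 on 7 untreated reads, and in THP-1 it passed the filter only with the etoposide libraries. The smallest change was in THP-1, from 0.471, 1.13 and 0.934 to 2.53, 1.18 and 1.43 CPM, by 1.02 ± 0.35 (edgeR adjusted p = 0.035). That call rested on the first library of either group, since the change fell to 0.75 or 0.63 and missed the threshold without one or the other. Of the 10588 genes tested in all 10 lines, 17 were called higher in all 10 (0.161%). CD86 was one of them, beside CDKN1A, FGR, a Src-family kinase of myeloid cells, the chemokine CXCL8 and complement C3, named after their values were seen. Of the 17, 2 passed the filter with the untreated libraries in all 10 lines, and CD86 did so in 6.

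TYROBP rose in KASUMI-1 from 0.457, 0.420 and 0.548 to 14.5, 19.9 and 14.1 CPM, by a fitted 5.07 on the log2 scale. The untreated libraries there held 27 reads in all, and TYROBP passed the filter only with the etoposide libraries, so the test had nearly to call it. Elsewhere it was called in MOLM-13, from 84.3 ± 4.18 to 273 ± 29.2 CPM, and in OCI-AML3, HL-60, MV-4-11, F-36P and NB-4, by 1.21 to 1.70. In MONO-MAC-6, NOMO-1 and THP-1 it passed the test below the fold minimum, by 0.67, 0.70 and 0.54.

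FCER1G rose most in the same line, from 2.03, 1.79 and 1.86 to a mean of 21.0 ± 3.19 CPM in KASUMI-1, by 3.46 ± 0.16. It was called in F-36P, MV-4-11, MOLM-13, OCI-AML3 and NB-4 by 1.05 to 1.69. In MONO-MAC-6, HL-60, NOMO-1 and THP-1 it changed by 0.94, 0.87, 0.80 and 0.80, each past the test and below the fold minimum. At the adjusted p alone, CD86, TYROBP and FCER1G were each higher in 10 of 10 lines, where 27.7% of all pairs of gene and line were higher and 24.4% lower. Of those lines, the gene passed the filter only with the etoposide libraries in 4 for CD86, 1 for TYROBP and 0 for FCER1G. The 3 etoposide libraries lay above the untreated ones in 56 of the 72 member pairs and below in 5. Over all pairs of gene and line these shares were 31.2% and 28.6%. The 72 pairs include 10 that passed the filter only with the etoposide libraries, which have nearly to lie above. These counts and shares were not taken without such pairs.

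**Figure D4:**
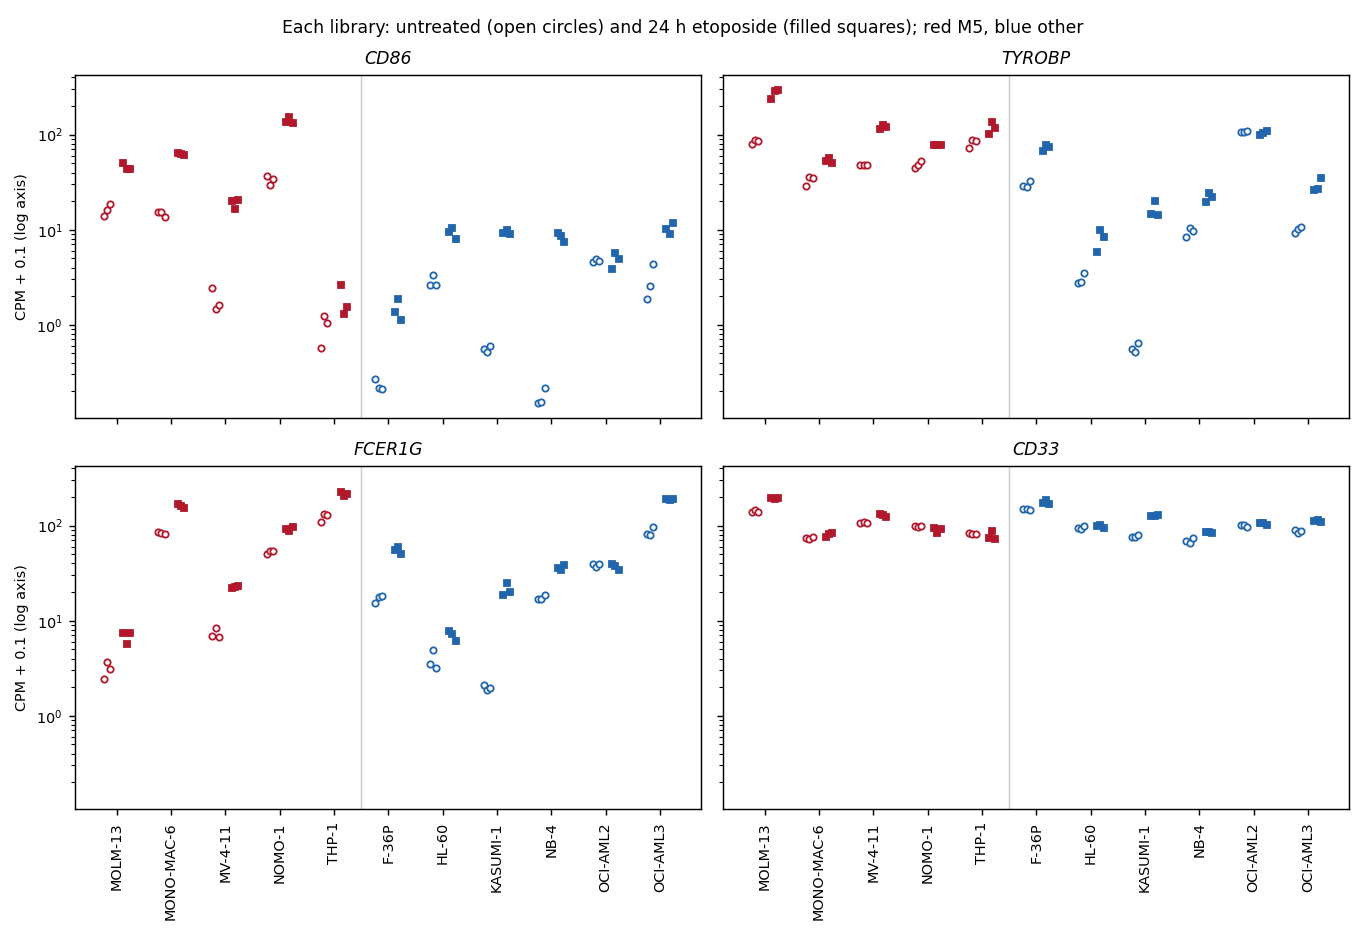
CD86, TYROBP, FCER1G and CD33 in every library, as CPM with 0.1 added on a log axis, untreated (open circles) and after etoposide (filled squares). The etoposide libraries lie above the untreated ones in 10 of 11 lines for CD86, TYROBP and FCER1G, with OCI-AML2 the exception, and CD33 moves little.

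CD14 rose in the 3 lines of the 10 with the highest untreated level. In MONO-MAC-6 it went from 20.7, 26.1 and 26.2 to 156, 180 and 162 CPM, by 2.77 ± 0.09 (edgeR adjusted p = 6.9e-10), and in THP-1 from 6.23, 8.09 and 7.99 to 39.4, 52.1 and 42.5, by 2.58 ± 0.16. OCI-AML3 rose from 5.23 ± 1.67 to 20.8 ± 8.15 CPM, by 1.98 ± 0.31. In each of these lines the lowest etoposide library lay above the highest untreated one. In NOMO-1 the change was 1.28 ± 0.43 on 17 and 43 reads, and it was lost without the first untreated or the second etoposide library (adjusted p = 0.10 and 0.077). In F-36P it was 0.25 ± 0.32 and not called. In the other 5 lines CD14 was too low to test. It had 56 reads after etoposide against 16 before in MV-4-11, 37 against 6 in NB-4 and 35 against 3 in KASUMI-1. MOLM-13 had 14 against 14 and HL-60 1 against 2.

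CD163 rose in the same 3 lines. MONO-MAC-6 went from 3.73, 3.03 and 3.19 to 10.7, 8.55 and 9.18 CPM, by 1.52 ± 0.13, OCI-AML3 from 7.98 ± 4.06 to 17.7 ± 2.25, by 1.15 ± 0.29, and THP-1 from 3.31 ± 0.256 to 7.43 ± 2.17, by 1.17 ± 0.21. The OCI-AML3 libraries without etoposide were uneven, at 112, 118 and 265 reads, and the change fell below the fold minimum without the first or the second of them (0.94 and 0.95). In THP-1 it fell to 0.91 without the first etoposide library. In F-36P CD163 was called from 0 to 43 reads, at least 12.3-fold higher against a floor of 3 reads over the group. It was also above 0 after etoposide in KASUMI-1 and NB-4, by 20 and 12 reads, too few to be tested, and by 18 reads against 1 in NOMO-1.

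The Fc receptors did not move as one. FCGR1A fell in MONO-MAC-6 from 7.88 ± 0.456 to 3.79, 3.07 and 3.89 CPM, by 1.13 ± 0.12 on the log2 scale (edgeR adjusted p = 7.7e-06). It fell in OCI-AML3 from 14.3, 15.1 and 15.3 to 5.99, 6.80 and 7.62, also by 1.13 ± 0.11. These were 2 of the lines in which CD14 and CD163 rose. FCGR1A also passed the test below the fold minimum in NB-4 and NOMO-1, at -0.87 and -0.41.

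FCGR1A rose in KASUMI-1, from 10.1 ± 1.55 to 22.8 ± 2.61 CPM, by 1.17 ± 0.14. In F-36P it was called on 1 and 56 reads, a ratio of 48.0 with an exact 95% interval of 8.28 to 1931 for counting error only. In MV-4-11 the estimate was -0.01 ± 0.08. FCGR2A rose in KASUMI-1 as well, from 7.67, 7.04 and 6.91 to 61.8, 55.3 and 58.2 CPM, by 3.02 ± 0.10, and in F-36P, from 81.1 ± 8.69 to 211, 189 and 218, by 1.34 ± 0.12. It passed the test below the fold minimum in 5 further lines, by 0.39 to 0.90. The copies FCGR1BP, FCGR1CP, FCGR2B and FCGR2C held 2775, 663, 4903 and 2527 reads in the 33 untreated libraries and 4324, 1454, 9500 and 6599 in the 33 etoposide libraries, and their part in these changes was not tested. In the same lines FCGR2B rose from 0.354 ± 0.124 to 55.4 ± 1.36 CPM in KASUMI-1 and from 0.168 ± 0.148 to 18.9 ± 2.23 in F-36P.

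CD33 was not called in any of 10 lines, and its log2 changes ran from -0.12 ± 0.08 in NOMO-1 to 0.71 ± 0.07 in KASUMI-1. At an adjusted p alone it was higher in 5 lines, KASUMI-1, MOLM-13, OCI-AML3, NB-4 and MV-4-11. With the 60 libraries normalized together, its level after etoposide lay between 79.1 CPM in MONO-MAC-6 and 214 in MOLM-13. CD68 was tested in 3 lines and called in none, with estimates of -0.69 ± 0.36 in NOMO-1, 0.38 ± 0.27 in OCI-AML3 and 0.22 ± 0.38 in THP-1.

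The size of the change differed between lines for each member other than CD68, whose counts cannot be read as its expression. In a single fit of 60 libraries the interaction of treatment and line passed an adjusted p of 0.05 for those 8 members by edgeR. It did so for 74.5% of 19974 genes. Each line had its own dose, so the part of the line cannot be told apart from that of the dose. CD68 passed this test too (edgeR interaction adjusted p = 0.012) and is left aside only for its counts. The lines came closer together for some members. The SD over 10 lines of log2 CPM was 2.31 before and 1.57 after etoposide for TYROBP, 2.61 and 2.09 for CD86 and 2.19 and 1.83 for FCER1G. The SD was larger after etoposide for CD14 (3.45 against 2.66), CD163 (2.81 against 2.63) and CD33 (0.51 against 0.38). Over all genes it was smaller after etoposide for 42.5%, with medians of 0.73 and 0.84, and these values have no test.

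The changes did not separate the M5 lines from the others. With 5 lines against 5, no gene passed an adjusted p of 0.05 by limma (0 of 19974, 0%), and 1129 had an unadjusted p below 0.05. The M5 lines changed less on average for 7 of 9 members, with a median difference of -0.57 on the log2 scale, against -0.08 over all genes. The difference was above 0 for 2 of the 9 members and for 7934 of the 19974 genes. CD86 rose by 2.02 (SD 0.92 over lines) in M5 lines and 3.21 (SD 1.66) in the others, a difference of -1.19 ± 0.80 (limma adjusted p = 0.82, exact permutation p = 0.21 over 252 splits, the smallest possible being 0.00794). TYROBP differed by -1.06 ± 0.71 (exact permutation p = 0.10). CD14 went the other way, by 0.41 ± 0.66 (exact permutation p = 0.54). Single lines weighed on some of these differences. TYROBP rose by 4.87 in KASUMI-1, where the nearest of the other lines outside M5 rose by 1.51. TYROBP passed the filter in KASUMI-1 only with the etoposide libraries. So did CD86 in F-36P, KASUMI-1 and NB-4, and in THP-1 among the M5 lines. CD14 also entered with 5 lines in which it was too low to test. The differences between M5 and other lines were not taken without such pairs, and they rest in part on levels near 0. The difference for FCGR1A, -0.65, became 0.02 without F-36P.

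Genes that work with the members were read from fixed lists over the same 10 lines. Each count is given for all pairs of gene and line tested and then without the pairs that passed the filter only with the etoposide libraries, where 6.66% of all genes were called higher and 4.33% lower. Of the receptors that pair with TYROBP, 43 of 75 pairs were called higher and 0 lower, and 30 of 61 without those pairs, with a median log2 change of 0.97. Among them ITGAM, the alpha chain of the integrin CR3, was higher in 9 of 10 lines (8 of 9 without them), TREM1, which amplifies inflammatory signals, in 8 of 9 (5 of 6) and SIGLEC14 in 7 of 9 (6 of 8). Of the CD33-related Siglecs, 28 of 53 pairs were higher and 1 lower, and 16 and 1 of 40 without those pairs, although CD33 was not called. SIGLEC9 was higher in 7 of 9 lines (3 of 5), SIGLEC10 in 7 of 10 (6 of 9) and SIGLEC7 in 6 of 9 (3 of 6).

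Of the genes that act with the Fc receptors, 31 of 135 pairs were higher and 5 lower, and 16 and 5 of 120 without those pairs. FGR was higher in 10 of 10 lines (6 of 6). FCGR2B, the inhibitory IgG receptor, was higher in 5 of 10 (2 of 7) and lower in OCI-AML3, by 1.87, under the same doubt on copies as above. In the lipopolysaccharide pathway that CD14 serves, 32 of 96 pairs were higher and 0 lower, and 26 and 0 of 90 without those pairs. TLR6 was higher in 6 of 10 lines, all 10 over the filter before etoposide, by a median of 1.18, TLR1 in 9 of 10 (7 of 8) and LY96, which binds lipopolysaccharide on TLR4, in 7 of 8 (4 of 5).

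Of the genes for costimulation and antigen presentation, 33 of 75 pairs were higher and 3 lower, and 18 and 3 of 57 without those pairs. CD80, which binds CD28 as CD86 does, was higher in 6 of 6 lines tested, of which 2 were over the filter before etoposide. CD40 was higher in 6 of 8 (3 of 5) and HLA-DMA in 5 of 9 (4 of 8). Scavenger receptors and LAMP genes gave 30 of 93 higher and 7 lower, and 18 and 7 of 80. HMOX1, which breaks down the haem brought in by CD163, was higher in 8 of 9 lines (5 of 6), STAB1 in 5 of 8 (3 of 5) and LAMP3 in 4 of 4 (1 of 1).

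Among other monocyte genes 74 of 164 pairs were higher and 3 lower, and 52 and 3 of 137 without those pairs. ITGAX was higher in 8 of 10 lines, all 10 over the filter before etoposide, by a median of 1.81, and S100A9 in 7 of 10 (4 of 7). CLEC7A, a receptor for fungal glucan, was higher in 7 of 7 lines, of which 1 was over the filter before etoposide. Markers of other lineages were counted beside them. Granulocyte markers were higher in 4 of 56 pairs and lower in 16 (2 and 16 of 53), with PRTN3 lower in 7 of 9 lines (median -1.33), MPO in 5 of 10 (5 of 9) and CTSG in 3 of 9 (-0.50). The list did not move as one. CSF3R was higher in 2 of 10 lines and lower in 0. FCGR3B was higher in 2 of 2, in neither of which it was over the filter before etoposide. Both were named after their values were seen. Lymphocyte markers were higher in 17 of 31 pairs and lower in 1 (9 and 1 of 20), with NKG7 higher in 7 of 10 lines (6 of 9), CD79A in 4 of 8 (2 of 5) and CD2 in 3 of 3, none of them over the filter before etoposide. Erythroid and megakaryocyte markers were higher in 8 of 29 pairs and lower in 3 (5 and 3 of 23). ITGA2B was higher in 5 of 10 lines (4 of 8), GP9 in 2 of 3 (1 of 2) and KLF1 higher in 1 and lower in 2 of 5 (0 and 2 of 3). Progenitor markers were higher in 6 and lower in 1 of 25 pairs (2 and 1 of 21). KIT was higher in 3 and lower in 1 of 6 lines (2 and 1 of 5), CD34 higher in 1 of 3 (0 of 2) and PROM1 in 1 of 1, which was not over the filter before etoposide. The part of these other lineages' genes in the members' changes was not tested.

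**Figure D5:**
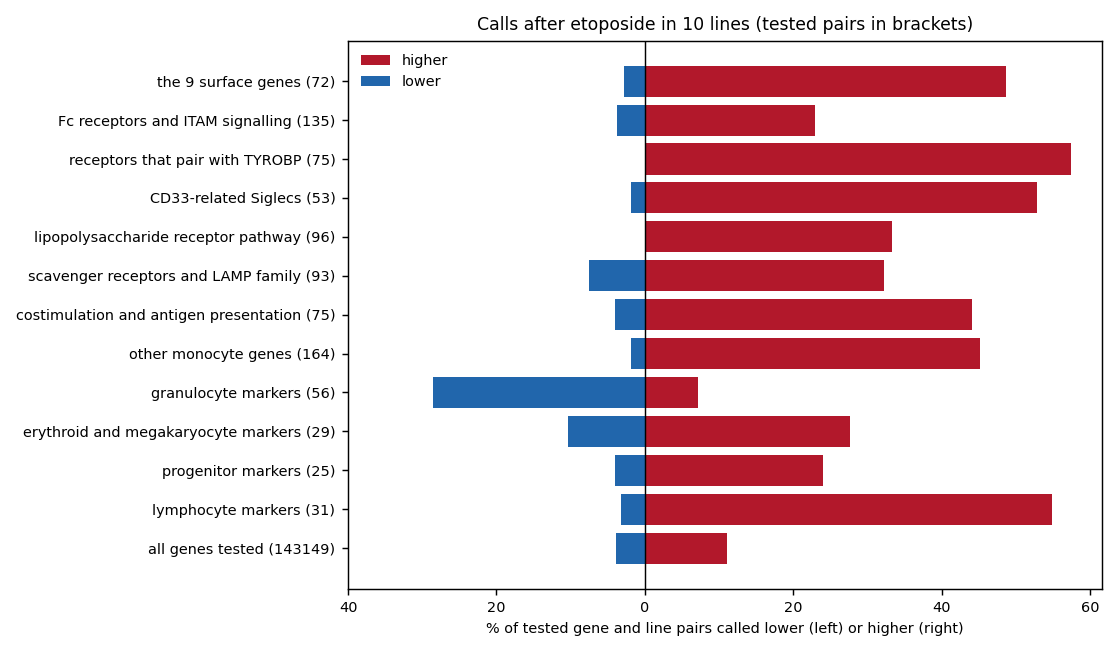
Share of tested pairs of gene and line called higher (right, red) or lower (left, blue) after etoposide, for the 9 members, 11 related lists and all genes tested, with the number of pairs in brackets. Calls to the right outnumber those to the left in every list but the granulocyte markers.

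At the untreated level the same lists were set between the M5 and the other lines, where again 0 genes passed and 9664 of 18130 lay higher in M5 lines. Of the other monocyte genes 19 of 21 lay higher in M5 lines, with a median difference of 1.95 on the log2 scale, the largest for the transcription factor IRF8 (5.38 ± 2.37), LILRB4 (4.65 ± 1.89) and the chemokine receptor CCR2 (4.45 ± 1.71). Of the genes that act with Fc receptors 11 of 15 lay higher, with FGR at 3.01 ± 1.63 and SYK at 1.92 ± 1.51. In the lipopolysaccharide pathway 9 of 10 did, with TLR2 at 4.39 ± 2.10, LY96 at 2.40 ± 0.74 (exact permutation p = 0.0152) and TLR4 at 1.20 ± 0.94. Of the receptors that pair with TYROBP 7 of 9 did, with ITGAM at 2.31 ± 1.12, CD300LB at 2.05 ± 1.29 and TREM2 at 1.98 ± 1.87.

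Costimulation and antigen presentation gave 8 of 10 higher, with CD74 at 3.48 ± 2.31, HLA-DRB1 at 2.96 ± 1.82 and HLA-DRA at 2.31 ± 1.89. Scavenger receptors and LAMP genes gave 9 of 12, with LAMP5 at 3.83 ± 2.57, CD163L1 at 2.92 ± 1.40 and STAB1 at -2.64 ± 1.66. The Siglecs were divided, 4 of 7, with SIGLEC7 at 2.44 ± 1.44, SIGLEC8 at -1.55 ± 1.01 and SIGLEC10 at -1.34 ± 1.32. None of these differences passed the adjusted p. Granulocyte markers lay higher in 5 of 7 (ELANE 3.65 ± 2.54, MPO -2.58 ± 2.80, AZU1 2.08 ± 1.78), progenitor markers in 3 of 4 (HOXA9 4.93 ± 1.66, MEIS1 3.94 ± 2.06, CD34 -3.17 ± 2.17) and lymphocyte markers in 4 of 5 (NKG7 2.72 ± 1.17, CD79A -1.32 ± 1.00). Erythroid and megakaryocyte markers did so in 0 of 11 (HBG2 -2.75 ± 2.53, KLF1 -1.91 ± 1.72).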

How the data were processed

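RNA was sequenced in 66 libraries of 11 AML cell lines, 3 untreated and 3 etoposide-treated per line, from stranded mRNA libraries of cells of several wells pooled. Per the labels and the study's methods, the authors mapped reads with STAR 2.5.3a to GRCh38.p7 with gencode 25 and checked them with FastQC 0.11.5; their own tests used edgeR 3.20.1. What the authors deposited is raw read counts per gene. Which strand setting the counts used is not given in the sources used here. STAR counts a read only where it overlaps exactly 1 gene. Names and exons came from gencode 44, by identifier, for 56948 of 57992 genes, and 45 copies on the Y pseudoautosomal region with 0 reads were left out. Total counts were 17997404 to 24101670 per library, so a group without reads may hold up to 3 reads over its 3 libraries (counting error only). The labels call the replicates biological without naming separate cultures, and p-values measure the spread between these libraries.

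Each line was tested in R 4.3.3 with edgeR 4.0.16 (TMM, quasi-likelihood test, Benjamini-Hochberg adjustment over all genes tested) after filterByExpr at counts of 10 and totals of 15. Calls needed both an adjusted p under 0.05 and more than a 2-fold change. The test per line was computed without a replicate block, untreated levels in 1 fit of 33 libraries, and M5 against other lines with limma 3.58.1 on mean log2 CPM per line (prior count 2) and an exact permutation over lines. DESeq2 1.42.0, Python 3.11.15, numpy 2.4.6, pandas 2.3.3, scipy 1.17.1 and matplotlib 3.10.9 were also used. The scripts were tested on simulated data. Replicate numbers were taken as pairing libraries where each of 3 correlations of same-numbered libraries' deviations was over 0.1, in NB-4, OCI-AML2, MONO-MAC-6 and MOLM-13 (lowest 0.11).

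Promoters were taken from RefSeq (GRCh38.p14), where 9 of 9 members matched. The members, the lists and the tests were chosen with earlier results of these data known. Named genes were the members, the 3 genes most like each, and in each list the 3 with the largest M5 difference and the 3 called in the most lines. SIGLEC5 and TICAM2 were not tested. SIGLEC5 was read from its protein-coding identifier alone, which held 0 reads, and a further identifier of that symbol was not counted for it. Some genes that the rule names are not reported here. Alternatives covered filters, normalization, test, prior count, grouping of lines, replicate block and leaving out each library or line.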

Additional observations from a re-analysis of the deposited data

Results flagged for a closer look

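In 36 sets of lines (M5 or other, untreated level or change, 9 members) the highest and lowest line were compared with the rest by Dixon's test, which picks out about 1 set in 20 by chance. It picked out 2. The untreated CD163 level of OCI-AML3, 2.89 on the log2 CPM scale, lay above the other 5 lines outside M5, the nearest of which was at -2.47. F-36P, HL-60, KASUMI-1 and NB-4 had 0 reads there and share the lowest value, -3.32. The rate of 1 set in 20 does not apply to a set with such ties. The change of TYROBP in KASUMI-1, 4.87 on the log2 scale of line means, lay above the other 4, the nearest of which was at 1.51. The 3 untreated CD163 libraries of OCI-AML3 held 112, 118 and 265 reads.

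The etoposide change differed among the 10 lines for each member other than CD68, by the interaction of treatment and line in edgeR. The adjusted p was 5.4e-22 for FCGR2A, 1.8e-19 for TYROBP, 3.7e-18 for FCGR1A, 8.3e-18 for FCER1G, 4.7e-15 for CD86, 3.2e-12 for CD33, 0.0010 for CD163 and 0.00041 for CD14, where 74.5% of all genes passed. For CD68 it was 0.012, and its counts cannot be read as its expression. FCGR1A was the member called in opposite directions, higher in F-36P and KASUMI-1 and lower in MONO-MAC-6 and OCI-AML3. This test was chosen after the data were seen, and it cannot tell the line from its dose.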

How the results depend on the processing

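Over 10 summary results and 155 alternative values, 146 stayed within 1.5 times of the reported count. The members called higher, 35, ranged from 24 (without F-36P and KASUMI-1) to 52 (no fold change minimum), were 28 at a mean of at least 5 CPM, 27 without the pairs that passed the filter only with the etoposide libraries and 35 with OCI-AML2 counted (the last 2 and the count of 24 chosen after seeing the data), and were 35 to 39 when a library was left out of each line. The members called lower, 2, became 4 with no fold change minimum. The etoposide change per line, 21491 calls over all genes, became 8797 at a mean of at least 5 CPM and 74554 with no fold change minimum, and 21886 to 23132 without 1 library. In OCI-AML2 the 0 called genes became 1 with no filter and 3 with no fold change minimum. With the replicate block the members called higher were 34 and lower 2, the calls over all genes were 21434, and CD86 in THP-1, where the numbers do not pair the libraries, fell to 0.99 on the log2 scale; no other member call changed with the block. Of 1164 member values by line, 0 reversed, 10 lost the call and 22 gained it, most of the latter with no fold change minimum. CD14 in NOMO-1 also lost it by DESeq2 (adjusted p = 0.081) and in 1 fit of 60 libraries (0.065).

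Untreated M5 against other lines gave 0 genes, 232 with the M4 lines moved to the M5 side and 0 to 4 when a line or replicate was left out, 3 without F-36P, 4 without MV-4-11 and 1 without OCI-AML2; the change after etoposide gave 0 in each. No member passed in any. FCGR1A's difference in change, -0.65, was 0.02 without F-36P. Neighbouring lines that differed numbered 40, 31 to 37 without a replicate number. Of the 27 genes named as most alike, 20 stayed with 0.25 CPM added in place of 1. Members under about 30 reads a group are limited by depth.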
